A study of Mus musculus with 18 samples.

Results

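The comparison set 3 arrays of mouse distal colon collected at 12am, 5 h after lights off, against 3 arrays collected at 8pm, 1 h after lights off. The 6 arrays were chosen by their titles from the 18 arrays of the series, and all 12870 genes that passed a filter on low signal were tested. The mice fed ad libitum and had lived for 2 weeks in a cycle that lit them between clock hours 7 and 19, with no other treatment named. Their strain, sex and age are not given in the sources used here, nor is it said whether each array is a separate animal or a pool. The p values thus measure only how these samples spread, which may be technical. The same interval in the light, 12pm (5 h after lights on) against 8am (1 h after lights on), again with 3 arrays each, is given beside the dark one, since it uses none of its arrays. Below, the step in the dark is 12am minus 8pm and the step in the light is 12pm minus 8am, both as differences of log2(signal + 16) with their standard errors. The signal is the brightness of a probe set on a linear scale, and as deposited every array has a mean of 500 once the lowest and highest 2% of probe sets are removed.

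Cells keep daily time with a loop in which the activators Clock and Arntl turn on their own repressors of the Per and Cry families, while the nuclear receptors of the Nr1d and Ror groups set the level of Arntl. The same activators drive output genes such as Dbp, a transcription factor that binds D-box sequences. In mice the early dark is the time of waking and the main time of feeding, and the glucocorticoid hormone of the blood peaks around lights off, so that clock, hormone and food can all act on the gut in these hours.

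Markers of the labelled tissue were bright in all 6 arrays. Slc26a3, the chloride and bicarbonate exchanger of surface colonocytes, had signals of 16974 to 19114 at 12am and 21497 to 24864 at 8pm, and Hoxb13, a transcription factor of the hindmost gut, 5027 to 7467 at 12am and 7670 to 9254 at 8pm. These are the 2 of 17 colon identity genes called lower at 12am, and both calls were lost in at least 9 fits that left out 1 array. Smooth muscle was present, with Actg2 at 7270 to 13841 in the 12am arrays and 6195 to 10538 in the 8pm arrays. The markers of skeletal muscle differed in level. Myh1 stayed at or below 58.6 at 12am and 25.1 at 8pm. Ckm had 385 to 787 at 12am and 267 to 596 at 8pm, and Acta1 288 to 433 at 12am and 250 to 1063 at 8pm. Transcripts of the exocrine pancreas stood apart: the median signal of 28 such transcripts was 3612, 19262 and 256.5 in 12am a, b and c, against 90.6, 119.5 and 75.0 in 8pm a, b and c. They are set apart in the last paragraph, and counts without 12am a and b are given where a gene group leads. For the Gapdh control, signal at the 3′ end over the 5′ end, which is high in broken RNA, was 1.12, 0.877 and 0.806 in the 12am arrays and 0.802, 0.841 and 0.793 in the 8pm arrays.

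Between 8pm and 12am a large share of the colon transcriptome differed. Of the 12870 genes, 2802 passed the limma test at an adjusted p under 0.05, or 21.8%: 1498 were higher at 12am (11.6%) and 1304 were lower (10.1%). In 2728 genes (21.2%) all 3 arrays of 12am lay above all 3 of 8pm, and in 2221 (17.3%) all lay below. Without the pancreatic list 1479 of 12845 genes were higher and 1304 lower. In whole tissue, fewer cells of a type and less RNA per cell cannot be told apart. Most of the genes that changed in the dark moved the same way in the light, where 1380 genes passed (10.7%), 714 higher at 12pm (5.55%) and 666 lower (5.17%). Of the genes higher at 12am, 95.7% were also higher at 12pm than at 8am, and of those lower at 12am, 88.7% were also lower at 12pm, against 73.8% of all genes with the same direction in both steps. The steps correlated with r = 0.682 over the 12870 genes, which are not independent replicates, and 819 genes passed in the same direction in both. The test of the step in the dark less the step in the light called 0 genes (0%) in limma, with 1144 at an unadjusted p under 0.05. A missed threshold does not show that the steps were equal. The starting arrays of the 2 steps were alike, the end arrays less so. Arrays of 8am and 8pm correlated at r = 0.955 to 0.963, and pairs within 8pm at 0.960 to 0.966. Arrays of 12pm and 12am correlated at 0.924 to 0.940, pairs within 12am at 0.925 to 0.938 and pairs within 12pm at 0.949 to 0.961. The 12pm arrays were about as close to those of 8am (0.922 to 0.939) and of 8pm (0.925 to 0.943). Arrays of 8pm and 12am gave only 0.908 to 0.915. Whether handling of the arrays had a part in this was not tested.

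**Figure D1:**
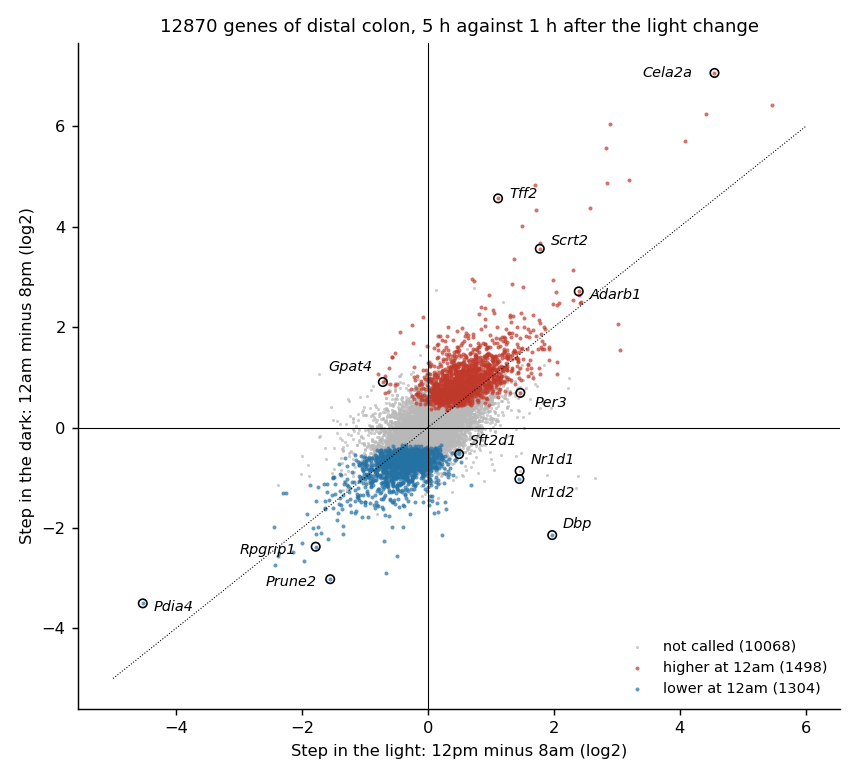
Each point is 1 of 12870 genes, with the step in the light (12pm minus 8am, log2) on the horizontal axis and the step in the dark (12am minus 8pm, log2) on the vertical axis. Red points are the 1498 genes higher at 12am, blue points the 1304 lower and grey points the 10068 not called, and the dotted line marks equal steps. Most coloured points lie in the lower left and upper right, while Dbp, Nr1d2, Nr1d1 and Sft2d1 lie in the lower right and Gpat4 in the upper left.

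The direction of the calls went with signal level and with scaling. Among the 4290 dimmest genes 868 were higher at 12am (20.2%) and 152 lower (3.54%), and among the 4290 brightest 166 were higher (3.87%) and 805 lower (18.8%). The array medians moved along, at 214, 222 and 252 in the 12am arrays against 178, 184 and 168 in the 8pm arrays, and at 203, 188 and 221 in the 12pm arrays against 161, 183 and 165 in the 8am arrays. After quantile normalization the dimmest genes gave 370 higher and 374 lower, the brightest 333 higher and 433 lower, and the steps still correlated with r = 0.634. Of the called genes 53.5% were higher at 12am as deposited and 45.2% after quantile normalization. Centring each array on its median gave 13.3%, as it shifted the median of all genes to -0.32 from 0.03. Counts of higher against lower genes therefore hold for the deposited scaling. List medians stand beside a median over all genes of 0.03 in the dark and 0.06 in the light, and -0.17 in the dark for the 4290 brightest genes. The number of calls also rested on the arrays in the fit, with 623 when all 18 arrays shared the spread, 1399 without 8pm a, 1739 without 8pm b and 1498 without 12am a and b, of which 712 were higher (5.53%) and 786 lower (6.11%).

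The clock was among the groups with the most changes, in both directions. Of 17 clock loop genes tested 8 passed (47.1%, against 21.8% of all genes), 4 higher and 4 lower at 12am, with a median step of -0.45 in the dark and 0.09 in the light, beside 0.03 and 0.06 for all genes. Without 12am a and b, Rora alone was called in 17. The promoters of 4 of these and related genes are shown because their transcripts moved together in one step and apart in the other. Each is the 250 bases before a listed transcript start in mouse RefSeq, build GRCm38.p6. The windows are chr4:151044666-151044915 (minus strand) for Per3, chr12:86947093-86947342 (plus) for Cipc, chr7:45704997-45705246 (plus) for Dbp and chr14:18239107-18239356 (minus) for Nr1d2. Capitals mark the D-box TTANGTAA and the E-box CACGTG, each searched on both strands, with no overlap between the matches.
Per3: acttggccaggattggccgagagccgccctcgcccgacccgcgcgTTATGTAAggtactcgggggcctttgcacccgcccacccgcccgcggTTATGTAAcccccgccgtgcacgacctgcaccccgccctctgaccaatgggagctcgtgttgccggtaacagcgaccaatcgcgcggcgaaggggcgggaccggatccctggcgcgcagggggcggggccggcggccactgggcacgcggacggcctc
Cipc: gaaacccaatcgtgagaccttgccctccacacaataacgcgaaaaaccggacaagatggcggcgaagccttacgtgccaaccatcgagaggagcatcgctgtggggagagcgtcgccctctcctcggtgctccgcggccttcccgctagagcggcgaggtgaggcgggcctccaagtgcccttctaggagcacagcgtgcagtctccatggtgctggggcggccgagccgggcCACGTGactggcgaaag
Dbp: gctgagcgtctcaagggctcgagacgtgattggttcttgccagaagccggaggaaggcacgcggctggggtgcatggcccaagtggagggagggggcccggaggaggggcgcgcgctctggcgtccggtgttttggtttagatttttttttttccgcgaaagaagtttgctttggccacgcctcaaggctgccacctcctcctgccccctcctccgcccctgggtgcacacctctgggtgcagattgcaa
Nr1d2: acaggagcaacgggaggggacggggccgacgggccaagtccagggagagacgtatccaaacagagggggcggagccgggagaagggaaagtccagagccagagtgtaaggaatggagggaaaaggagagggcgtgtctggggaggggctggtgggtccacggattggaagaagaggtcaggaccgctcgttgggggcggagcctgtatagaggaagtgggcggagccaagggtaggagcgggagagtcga
Per3 held 2 D-boxes, 205 and 158 bases before the start, and Cipc 1 E-box 17 bases before it, while the Dbp and Nr1d2 windows held neither. A further listed Cipc start, with the window chr12:86946791-86947040 (plus), held neither. Of called clock genes not shown, Timeless held 1 D-box 157 bases before its start. The windows of Clock, Rora, Csnk1e and Usp2 held neither motif, and no window was searched for Bhlhe40, which was also called. Over all 32851 promoters of this length 6.02% held the E-box and 2.06% the D-box. A match is a string of letters, not a shown binding site, and its absence here speaks of these windows alone.

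Dbp, the output factor named above (chromosome 7, 45705100 to 45710203), changed most among clock transcripts. Its signals were 935, 729 and 611 at 12am, against 4890, 4907 and 1568 at 8pm. The times did not overlap, and 8pm c lay well below the other 8pm arrays. The step was -2.14 ± 0.48 (adjusted p = 0.00788), or 4.42-fold higher at 8pm, and it passed in all 26 alternatives. A further Dbp probe set gave -1.86 (adjusted p = 0.00454). In the light Dbp ran the other way, at 1541, 863 and 725 in the 12pm arrays against 149, 152 and 588 in the 8am arrays (step 1.97, adjusted p = 0.0200).

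Nr1d2, a repressor of Arntl (chromosome 14, 18204056 to 18239106), had signals of 1251, 2272 and 2209 at 12am, against 4551, 4681 and 2525 at 8pm. All 12am arrays lay below all 8pm arrays, with a step of -1.03 ± 0.26 (adjusted p = 0.0141), and in the light the step was 1.45 (adjusted p = 0.00408). Its relative Nr1d1 had 258, 422 and 373 at 12am, against 642, 642 and 635 at 8pm. Its arrays did not overlap either, but the step of -0.87 ± 0.32 missed the threshold (adjusted p = 0.0635), while the light step of 1.46 passed (adjusted p = 0.0116). Cipc, which binds Clock and restrains it, was lower at 12am (-0.46 ± 0.15, adjusted p = 0.0428) and higher at 12pm (0.50, adjusted p = 0.0493), with 1 overlap in the dark, where 12am b exceeded 8pm c. Its second probe set gave 0.03, and its call was lost in 8 of the fits that left out 1 array. Together with Dbp, Nr1d2 and Cipc, Sft2d1, a protein of vesicle transport, was lower in the dark (-0.53 ± 0.12) and higher in the light (0.50). Gpat4, an enzyme of triglyceride synthesis, was higher at 12am, with 735, 723 and 601 against 287, 371 and 428 at 8pm, and lower at 12pm. These 5 are all the genes called in both steps in opposite directions. Non-overlapping arrays in both steps, lower in the dark and higher in the light, were found in 67 genes (0.521%), and the reverse in 25 (0.194%).

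**Figure D2:**
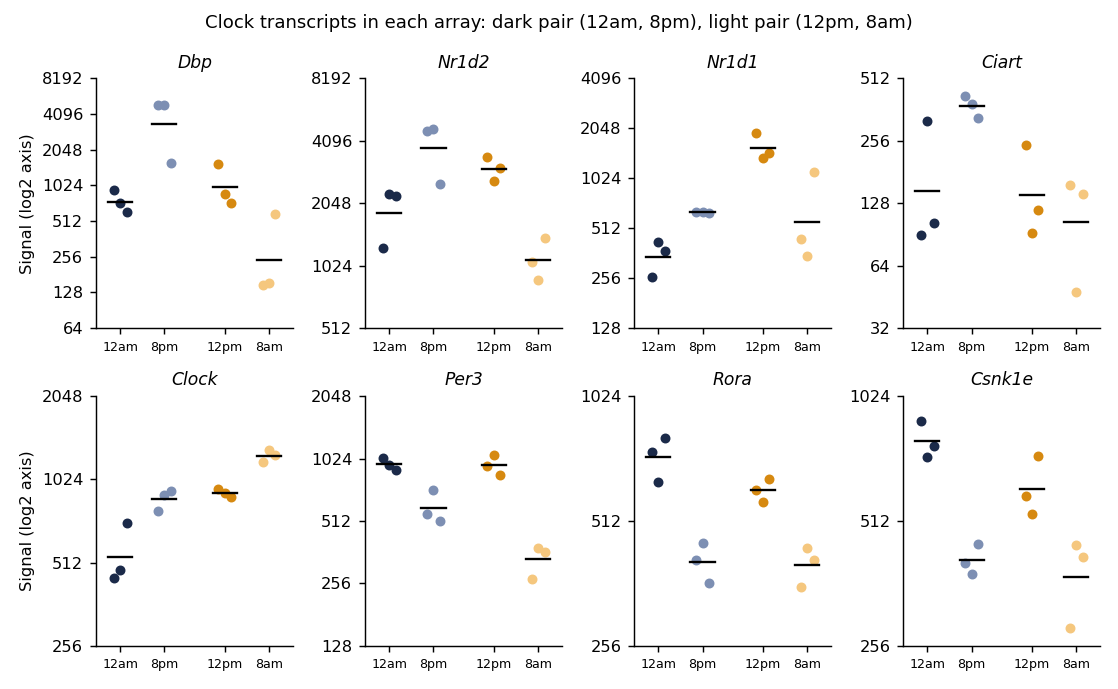
Signal of 8 clock transcripts in every array on a log2 axis, with the dark pair (12am, 8pm) on the left of each panel and the light pair (12pm, 8am) on the right. Dots are arrays (3 per time) and bars are means of log2(signal + 16) turned back to signal. Dbp and Nr1d2 were lower at 12am than at 8pm and higher at 12pm than at 8am, whereas Per3, Rora and Csnk1e were higher at the later time in both pairs.

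Other members of the loop changed with the same sign in both steps. Per3, of the Per repressor family, had 1026, 958 and 907 at 12am, against 554, 725 and 513 at 8pm, a step of 0.69 ± 0.18 (adjusted p = 0.0150), and 1.47 in the light (adjusted p = 3.684e-04). Rora, an activator of Arntl, was at 753, 637 and 811 at 12am, against 412, 452 and 362 at 8pm. Its step was 0.82 ± 0.16 (adjusted p = 0.00426) and it kept its call in 25 of 26 alternatives, although its second probe set gave -0.42. Csnk1e, a kinase that marks Per proteins for decay, rose by 0.93 ± 0.19 (adjusted p = 0.00517), with 0.14 in its second probe set. Clock itself had 449, 481 and 713 at 12am, against 790, 902 and 927 at 8pm, a step of -0.68 ± 0.17 (adjusted p = 0.0122), with 0.15 in a second probe set. Timeless, a replication fork protein that also binds clock proteins, was higher (0.68 ± 0.23) and Bhlhe40, a repressor of Clock and Arntl action, lower (-0.45 ± 0.15), both close to the threshold with adjusted p of 0.0486 and 0.0418. With 1 array left out, the Timeless call was lost in 10 of 12 fits and that of Bhlhe40 in 7 of 12.

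The remaining loop genes were not called in the dark. Ciart, a repressor of Clock and Arntl, had 90.3, 320 and 103 at 12am, against 421, 386 and 330 at 8pm, with a step of -1.28 ± 0.47 (adjusted p = 0.0613). Arntl gave 0.48 ± 0.22 (adjusted p = 0.122), but its second probe set gave 1.14 with an adjusted p of 0.00467. Cry1, a repressor, gave 0.63 ± 0.31 in the dark and -0.96 in the light, and Per1 and Per2 gave -0.50 ± 0.36 and -0.51 ± 0.23 in the dark. Among 12 clock outputs 2 were lower at 12am (16.7%, against 10.1%), Dbp and Usp2, a protease that removes ubiquitin. Usp2 had 958, 709 and 750 at 12am, against 1603, 1693 and 1215 at 8pm (-0.89 ± 0.18, adjusted p = 0.00488). Tef, a relative of Dbp, gave -0.16 ± 0.20 in the dark and 1.26 in the light (adjusted p = 0.00238). Npas2, Cry2 and Csnk1d of the loop were not called in the dark. Nor were the outputs Hlf, Tspan4, Wee1, Lonrf3, Dtx4, Coq10b, Nampt, Tsc22d3 and Cirbp. For no clock gene did the difference between the steps pass over all genes, the lowest adjusted p being 0.0867 for Nr1d2.

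In the list of glucocorticoid receptors, targets and related genes 7 of 19 were lower at 12am, 1 was higher and 11 were not called. The share lower was 36.8%, against 10.1% of all genes and 18.8% of the brightest 4290, the level at which the list's median lies, with a median of -0.50 beside 0.03 for all genes and -0.35 after quantile normalization, whereas in the light limma called 0 of 19, with 2 at an unadjusted p under 0.05. Nr3c2, the mineralocorticoid receptor, had 1487, 1262 and 1331 at 12am, against 3415, 3428 and 2351 at 8pm. Its arrays did not overlap, and the step of -1.14 ± 0.19 (adjusted p = 0.0016) held in all 26 alternatives. Sult1a1, a sulfotransferase of the gut lining, had 4247, 3364 and 2889 at 12am, against 8892, 6970 and 6136 at 8pm (-1.06 ± 0.19, adjusted p = 0.00244), and also held in all 26. Nfkbia, the inhibitor of NF-kappa-B, had 7791, 7356 and 6190 at 12am, against 11960, 10805 and 9321 at 8pm (-0.59 ± 0.13). Klf9, a transcription factor induced by the hormone, had 1864, 2886 and 2529 at 12am, against 5193, 4804 and 3323 at 8pm (-0.86 ± 0.19), but 0.02 in its second probe set, and its direction turned when probe sets were averaged. Nr3c1, the glucocorticoid receptor, fell by 0.67, Errfi1, a brake on the EGF receptor, by 0.58 and Cebpd, a transcription factor, by 0.50. The exception was Hsd11b1, the enzyme that regenerates active hormone, with 1.36 ± 0.37 (adjusted p = 0.0186). Fkbp5, a chaperone of the receptor, gave 0.15 ± 0.17 and was not called. Without 12am a and b 3 of the 19 were lower, in a fit that called 6.11% of all genes lower.

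Immediate early and stress transcripts, which answer growth factors and cell stress within minutes, were lower in 6 of 21 and higher in 1. The share lower was 28.6%, against 10.1% of all genes and 18.8% of the brightest 4290, with medians of -0.43 in the dark and -0.03 in the light beside 0.03 and 0.06 for all genes. Zfp36, which destabilises cytokine messages, had 1163, 1712 and 1581 at 12am, against 2088, 2227 and 2554 at 8pm (-0.63 ± 0.15, adjusted p = 0.00968), and a light step of 0.45 (adjusted p = 0.0647). Junb, part of the AP-1 factor, had 1404, 1312 and 1081 at 12am, against 2216, 1960 and 2087 at 8pm (-0.72 ± 0.19). Jun, Ier2, Klf4 and Myc fell by 0.38, 0.43, 0.44 and 0.79. Egr3, of the same response, went against them, with 651, 1090 and 1479 at 12am and 315, 181 and 143 at 8pm. Its step was 2.25 ± 0.29 (adjusted p = 3.688e-04), 4.74-fold higher at 12am and called in all 26 alternatives, and the light step was 1.66. Fos and Egr1 were not called, at -0.51 ± 0.22 and -0.44 ± 0.29. Without 12am a and b 2 were lower and 1 higher, in a fit that called 6.11% of all genes lower and 5.53% higher.

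**Figure D3:**
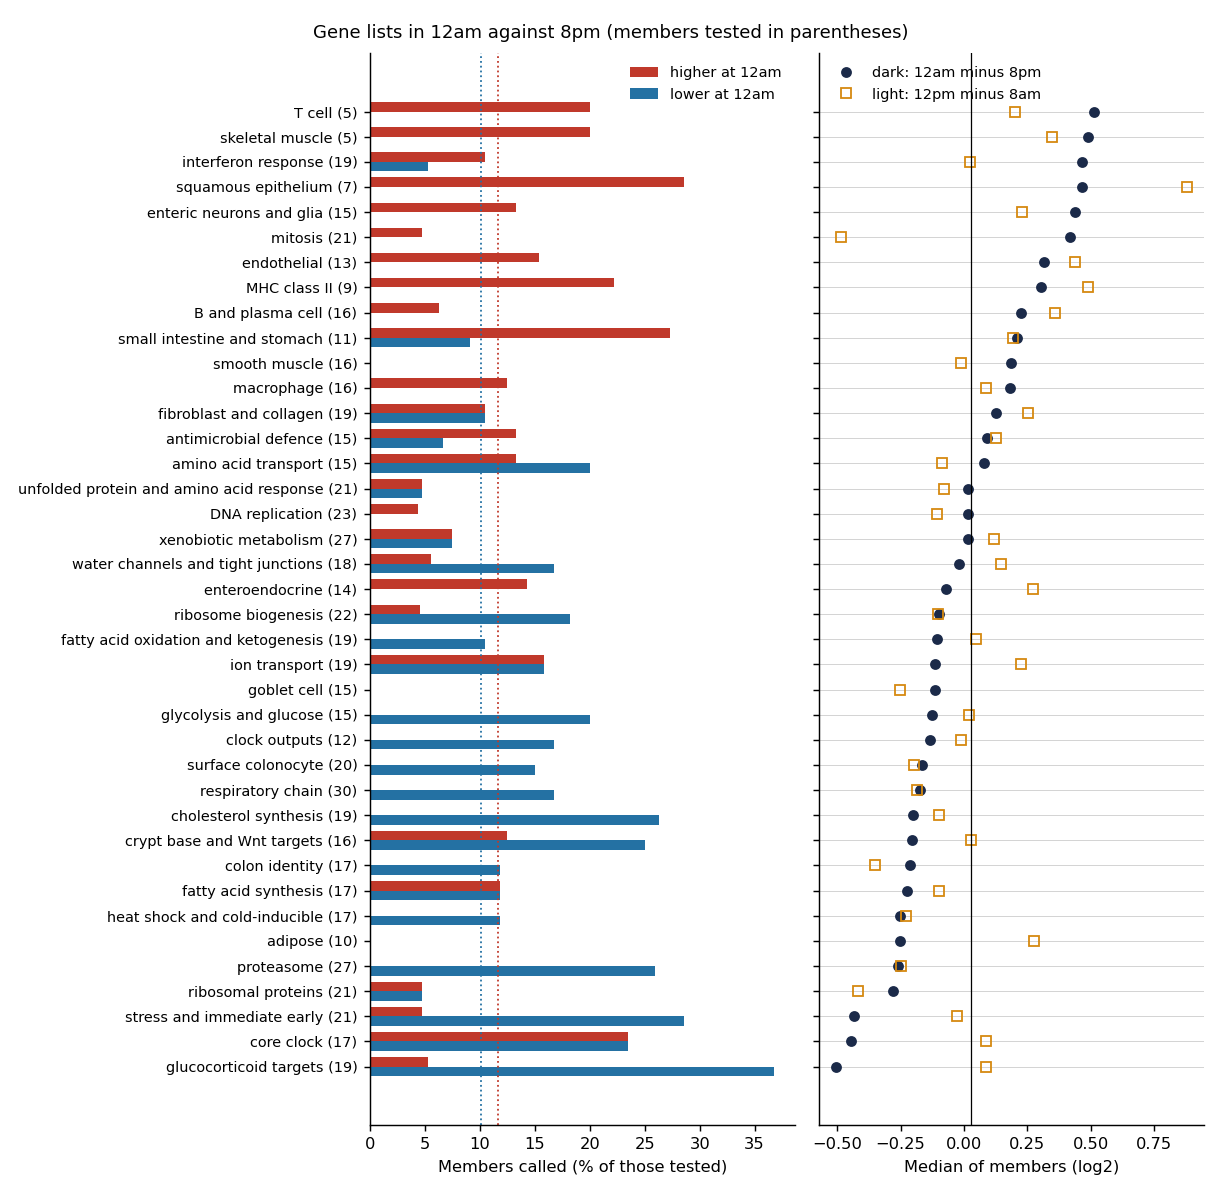
For each gene list with at least 5 members tested, the left panel gives the share of members called higher (red) and lower (blue) at 12am, with dotted lines at 11.6% and 10.1% for all genes, and the right panel the median step in the dark (filled circles) and in the light (open squares). The glucocorticoid list has the highest share called lower, at 36.8%, and the mitosis medians lie on opposite sides of 0.

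Genes of lipid and amino acid handling changed in part. Of 19 genes of cholesterol synthesis 5 were lower at 12am (26.3%, against 10.1% of all genes and 18.8% of the brightest 4290). The median of -0.20, beside 0.03 for all genes and -0.17 for the brightest, was -0.06 after quantile normalization, where 2 were lower. Insig1, which holds the sterol sensor in place, had 1422, 1252 and 902 at 12am, against 2459, 2503 and 2633 at 8pm, a step of -1.10 ± 0.19 (adjusted p = 0.00161). Hmgcs1, an early enzyme of the pathway, had 8767, 7188 and 6431 at 12am, against 14387, 9781 and 11171 at 8pm (-0.65 ± 0.19). Fdps, Idi1 and Msmo1, enzymes of later steps, fell by 1.02, 0.74 and 0.63. In both Insig1 and Hmgcs1 every 12am array lay below every 8pm array. In the light limma called 0 of the 19, with 6 at an unadjusted p under 0.05, and without 12am a and b 1 was lower in the dark, where 6.11% of all genes were. Fatty acid synthesis had 2 of 17 higher and 2 lower, 11.8% each way and thus near the 11.6% and 10.1% of all genes. Acaca, the committing enzyme, was higher (0.73 ± 0.19), as was Pnpla3, a lipase that acts on stored fat, with 491, 647 and 614 at 12am against 325, 315 and 259 at 8pm (0.92 ± 0.19).

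Of 15 amino acid transporters 3 were lower (20%, against 10.1%) and 2 higher (13.3%, against 11.6%). Slc36a1, a proton-coupled carrier, had 1711, 1640 and 1971 at 12am, against 3729, 3893 and 2750 at 8pm (-0.94 ± 0.19, adjusted p = 0.00436), and 0.39 in the light, which missed the threshold. Slc6a14, a carrier of neutral and cationic amino acids, had 2982, 4216 and 3855 at 12am, against 6554, 7698 and 5352 at 8pm (-0.82 ± 0.18), and its second probe set gave -1.36. Slc38a2, another amino acid carrier, was lower (-0.77 ± 0.14), but its second probe set gave 0.33 and averaging probe sets turned its direction. Slc16a10 and Slc6a19 were higher, at 0.68 ± 0.20 and 0.78 ± 0.26. For fuel use, 3 of 15 glycolysis genes (20%) and 5 of 30 respiratory chain subunits (16.7%) were lower. Both lists are bright, and these shares lie near the 18.8% of the brightest 4290 genes. The respiratory median of -0.17 equals that of the brightest genes and was 0.02 after quantile normalization. Slc2a1, the glucose carrier, had 3392, 2880 and 3049 at 12am, against 5321, 4726 and 4773 at 8pm (-0.67 ± 0.14), and it was lower in the light as well (-0.76, adjusted p = 0.0039). Slc5a8, which takes up butyrate in colonocytes, fell by 0.66 in the dark and gave 0.05 in the light.

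**Figure D4:**
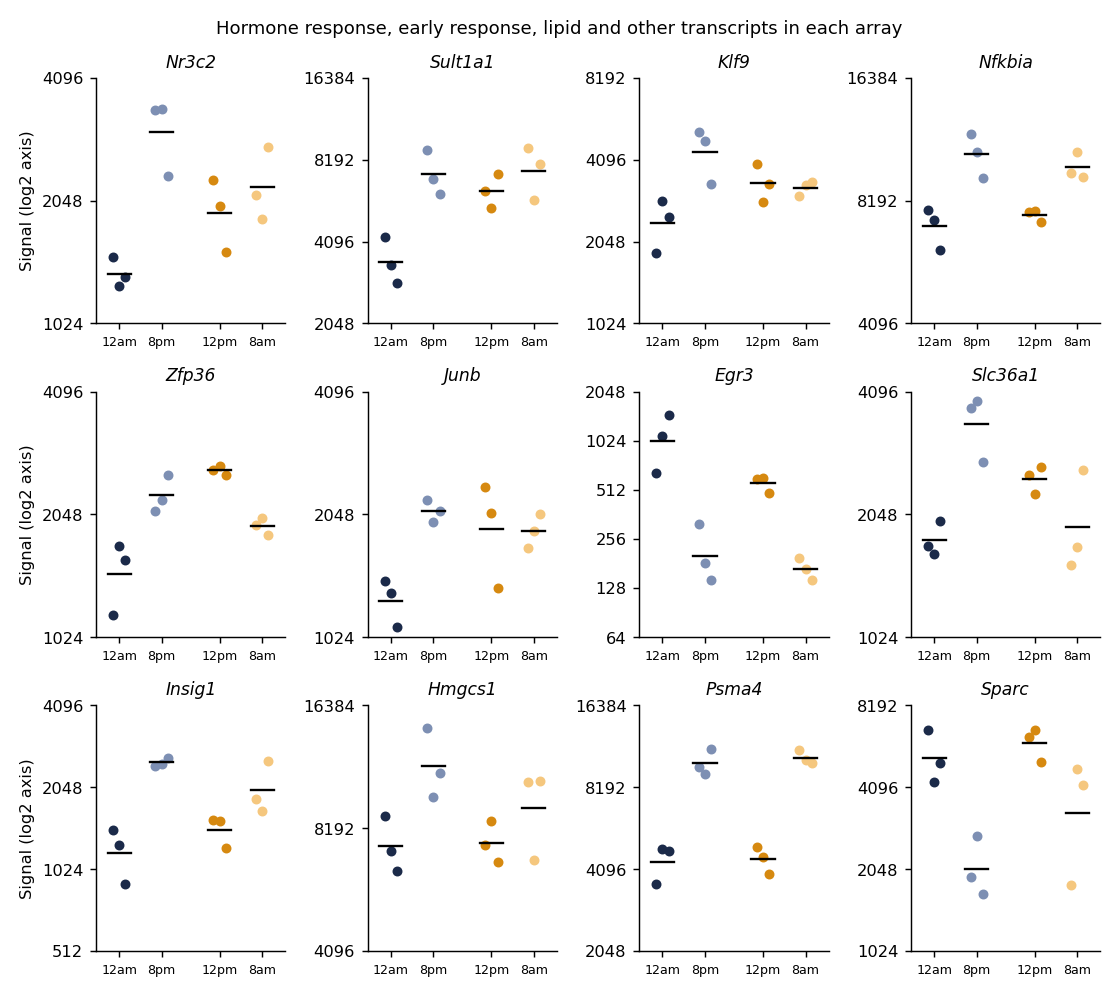
Signal of 12 transcripts of hormone response, early response, lipid, transport, proteasome and matrix in every array on a log2 axis, in the same layout as the clock plot, with dots for arrays (3 per time) and bars for means. Nr3c2, Sult1a1 and Junb separate 12am from 8pm and overlap in the light pair, while Psma4 and Egr3 separate the times in both pairs.

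Of 27 subunits of the proteasome, the complex that degrades tagged proteins, 7 were lower at 12am than at 8pm, and 7 were lower at 12pm than at 8am, with 20 not called in each comparison. Their share of 25.9% stood against 10.1% of all genes and 18.8% of the brightest 4290 in the dark, and against 5.17% and 10.2% in the light. The medians were -0.26 and -0.25, while the colon identity list, also bright, had -0.21 and -0.35 with 15 of 17 means lower in the dark. Psma4 had 3600, 4848 and 4752 at 12am, against 9702, 9162 and 11347 at 8pm. Its step was -1.20 ± 0.14 (adjusted p = 2.632e-04) in the dark and -1.23 in the light, and the dark call held in all 26 alternatives. Psmb7 followed with -0.93 ± 0.19. Quantile normalization gave 4 lower and a median of -0.11, and leaving out 12am a and b gave 3, where 9.87% and 6.11% of all genes were lower. Of 21 ribosomal proteins 20 had a lower mean at 12am, but 1 was called lower (Rpl19, -0.51 ± 0.16) and 1 higher (Rps27, 1.54 ± 0.31), shares of 4.76% below both backgrounds. Factors of ribosome assembly gave 4 of 22 lower (18.2%, against 10.1%): Npm1, with 4011, 4599 and 4318 at 12am against 8037, 7658 and 6161 at 8pm (-0.75 ± 0.14), Ddx21 (-0.90 ± 0.18), Dkc1 (-0.87 ± 0.21) and Ncl (-0.79 ± 0.19). Polr1a, the large subunit of RNA polymerase I, was higher (0.89 ± 0.20). Heat shock genes were lower in 2 of 17 (11.8%), a share close to the background.

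The median step of mitotic transcripts was above 0 in the dark and below 0 in the light. In the dark 17 of 21 had a higher mean at 12am and the median was 0.42 beside 0.03 for all genes, but 1 was called (4.76%, against 11.6%). That gene was Kif11, a spindle motor, with 313, 404 and 554 at 12am against 211, 245 and 306 at 8pm. Its step of 0.68 ± 0.23 (adjusted p = 0.0454) was lost in 8 fits that left out 1 array, and its second probe set gave -0.20. In the light 20 of 21 had a lower mean at 12pm and 4 of the 21 were called lower, where 5.17% of all genes were. Members of the list are not independent replicates. Their mean log2 level overlapped in the light, at 8.97, 9.35 and 8.75 in the 12pm arrays and 9.81, 9.13 and 9.85 in the 8am arrays. In the dark it was 8.75, 8.71 and 8.72 at 12am, against 8.48, 8.28 and 8.44 at 8pm. The difference between the steps was positive in 21 of 21, with a median of 0.86, though the lowest adjusted p was 0.272 and 10 had an unadjusted p under 0.05. Of 23 DNA replication genes 1 was higher (4.35%, against 11.6%). Their mean log2 level was 9.72, 9.49 and 9.31 in the 12am arrays, against 9.24, 9.15 and 10.26 in the 8pm arrays, where 8pm c stood above all others. The median step was 0.02, beside 0.03 for all genes, and 0.27 with 2 called higher without 8pm c.

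Of 16 crypt base and Wnt target genes 4 were lower (25.0%, against 10.1%) and 2 higher (12.5%, against 11.6%). Smoc2, a matrix protein of stem cells, had 1071, 1225 and 1196 at 12am, against 486, 638 and 648 at 8pm (0.97 ± 0.15, adjusted p = 0.00103), and was called in all 26 alternatives. Lgr5, the receptor that marks these cells, was higher as well (0.65 ± 0.19). Ascl2, a transcription factor of the same cells, was lower, with 121, 491 and 90.0 at 12am against 468, 576 and 523 at 8pm (-1.46 ± 0.41), and 12am b overlapped the 8pm arrays. Znrf3, a brake on Wnt receptors, Lrig1, a brake on growth factor receptors, and Myc were lower by 0.73, 0.75 and 0.79. With 1 array left out, the calls of Ascl2 and Myc were each lost in 5 of 12 fits, and that of Znrf3 in 1. Ion transport genes gave 3 of 19 in each direction, 15.8% against 11.6% higher and 10.1% lower, and the level of this list is that at which 18.8% were lower. Kcne3, a subunit of a basolateral potassium channel, had 2955, 4033 and 3043 at 12am, against 4861, 4985 and 5667 at 8pm (-0.64 ± 0.18). Slc12a2, which loads chloride for secretion, fell by 0.44, and Scnn1a, of the absorptive sodium channel, had 5391, 4259 and 3883 at 12am, against 2623, 3436 and 3520 at 8pm (0.49 ± 0.15).

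Tight junction genes with a lower level at 12am were Ocln, Tjp1 and F11r, 3 of 18 in a list that includes water channels (16.7%, against 10.1% of all genes and 18.8% of the brightest 4290). Ocln had 1247, 2067 and 2688 at 12am, against 3913, 3200 and 3834 at 8pm (-0.92 ± 0.21), with -0.11 in a second probe set. Aqp11, an intracellular water channel, was higher, with 1477, 1777 and 1899 at 12am against 911, 1021 and 1001 at 8pm (0.80 ± 0.16). Limma called 0 of 15 goblet cell genes, with 1 at an unadjusted p under 0.05, and Muc2, the main mucin, gave -0.01 ± 0.15. Among 14 enteroendocrine genes 2 were higher (14.3%, against 11.6%). Tph1, the rate-limiting enzyme of serotonin synthesis in the gut, had 453, 514 and 573 at 12am, against 249, 254 and 179 at 8pm (1.13 ± 0.19, adjusted p = 0.00145). Pcsk1, which cuts prohormones, gave 0.92 ± 0.20. Both were also higher at 12pm than at 8am, by 1.01 and 0.82.

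Immune and wall transcripts changed in few members. Interferon response genes gave 2 of 19 higher (10.5%), close to the background, and 1 lower, Ifit1 (5.26%, against 10.1%). Stat2, which carries the interferon signal, was among the higher, at 232, 415 and 333 at 12am against 103, 110 and 133 at 8pm (1.35 ± 0.27). Of the 19, 15 had a higher mean at 12am. The median step was 0.47 in the dark and 0.02 in the light, beside 0.03 and 0.06 for all genes. MHC class II genes gave 2 of 9 higher (22.2%, against 11.6%), H2-DMa (0.95 ± 0.27) and H2-Eb1 (0.75 ± 0.22), and macrophage genes 2 of 16 (12.5%, near that background), the complement parts C1qa (0.68 ± 0.21) and C1qc (0.63 ± 0.15). Both counts rest on a pair of genes, and after centring on the median 0 of either list was higher. Sparc, a matrix protein of fibroblasts, had 6642, 4287 and 5024 at 12am, against 1915, 2712 and 1664 at 8pm (1.34 ± 0.29, adjusted p = 0.00688), while Col4a1, a basement membrane collagen, was lower (-0.70 ± 0.18). Ano1, the chloride channel of pacemaker cells of the gut wall, had 6094, 4999 and 5200 at 12am, against 10968, 9758 and 8682 at 8pm (-0.85 ± 0.15), whereas Kit, the receptor that defines these cells, gave 0.00 ± 0.18. Limma called 0 of 16 smooth muscle genes, with 1 at an unadjusted p under 0.05. Markers of squamous epithelium from the anal border were higher in 2 of 7 (28.6%, against 11.6% of all genes and 20.2% of the dimmest 4290), among them Krt14 with 267, 305 and 282 at 12am against 117, 92.9 and 127 at 8pm. Their summed signal over the 7 was 2252 to 2625 at 12am and 1403 to 2079 at 8pm, and its part in other results was not tested.

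The 12 genes with the largest rise and the 12 with the largest fall outside the pancreatic list included several whose lower signals lay near the constant of 16 added before the logarithm, which understates such steps. Scrt2, a zinc finger factor known from neurons, had 368, 480 and 442 at 12am, against 14.9, 20.1 and 31.5 at 8pm (3.56 ± 0.39, adjusted p = 1.152e-04). Adarb1, an enzyme that edits RNA, had 717, 1539 and 1286 at 12am, against 156, 164 and 154 at 8pm (2.71 ± 0.25), with 2.39 in the light and 0.88 in its second probe set. Cyp26a1, which breaks down retinoic acid, had 467, 528 and 567 at 12am, against 50.7, 51.3 and 159 at 8pm (2.54 ± 0.36). Ankrd2, Khdrbs2, Klk1b5, Tex45, Oog3, Ifnab and Rnf151 completed the higher genes beside Tff2 and Pdia2, which are described with the pancreatic transcripts, with steps of 2.64 to 3.14. Klk1b5 and Ifnab have close relatives that their probe sets may also bind.

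On the lower side Pdia4, a protein-folding enzyme of the endoplasmic reticulum, had 138, 102 and 109 at 12am, against 1376, 1216 and 1919 at 8pm. The step was -3.50 ± 0.35 (adjusted p = 6.796e-05) or 11.3-fold, and that in the light was -4.53, with no overlap in either. Other genes of the unfolded protein list did not follow, since 1 of 21 was lower, Pdia4 itself. Rpgrip1, known from cilia of photoreceptors, had 1091, 1510 and 1515 at 12am, against 7252, 6286 and 7860 at 8pm (-2.37 ± 0.17, adjusted p = 8.582e-06), the lowest adjusted p of the 12 named here. Tm7sf2, a reductase of sterol synthesis, had 136, 335 and 493 at 12am, against 1730, 1813 and 1521 at 8pm (-2.50 ± 0.35). Plk3, a stress kinase, had 27.8, 369 and 34.1 at 12am, against 497, 739 and 878 at 8pm (-2.89 ± 0.60). Prune2, Rnasek, Mllt1, Agps, Upb1, Cyp2d26, Gsdme and Ttbk2 made up the rest, at -3.02 to -2.26. The second probe sets of Prune2, Agps and Gsdme gave -0.17, 0.33 and 0.29, and Agps turned to 0.34 with a constant of 1 and to 0.21 after quantile normalization. Over all genes called lower that had a second probe set, 65.0% of those had the same direction and 22.8% passed. For genes called higher the shares were 70.0% and 19.3%. Genes not called gave the background. Where their mean was lower at 12am, 53.5% of second probe sets had the same direction and 9.38% passed. Where it was higher, 64.75% had the same direction and 12.6% passed, so agreement among genes called higher lay near its background.

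Transcripts of the exocrine pancreas were high in 12am a and b. They were set apart because that was known of these data, so their values describe the arrays and no test is given. Cela2a, a digestive elastase, had 8220, 23471 and 243 at 12am, against 15.5, 9.68 and 9.86 at 8pm. Cpa1, a carboxypeptidase, had 6317, 19780 and 69.7 at 12am, against 13.0, 11.8 and 14.5 at 8pm. Array 12am b was the highest for both, 12am c was the lowest of its time and still above 8pm. The members above a signal of 1000 numbered 17, 25 and 5 of 28 in 12am a, b and c, against 5, 5 and 4 in the 8pm arrays. Those high in every array included Sycn, with 20157, 22644 and 15460 at 12am and 20448, 17149 and 14324 at 8pm, as well as Cela1, Spink1 and Klk1. Ins2, the insulin of the islets, had 149, 4625 and 80.5 at 12am, against 164, 93.9 and 161 at 8pm. Outside the list, 12am b exceeded 12am c at least 8-fold in 8 genes, 18 more being members. Among these 8 were Tff2, a trefoil peptide of the stomach, with 1753, 7610 and 117 at 12am against 21.7, 43.1 and 44.8 at 8pm, and Pdia2, a folding enzyme known from the pancreas, with 421, 9688 and 114 against 58.3, 27.2 and 65.7. Both were chosen here for their level in 12am b, neither passed the limma test without 12am a and b, and no gene was 8-fold higher in 12am c than in 12am b.

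**Figure D5:**
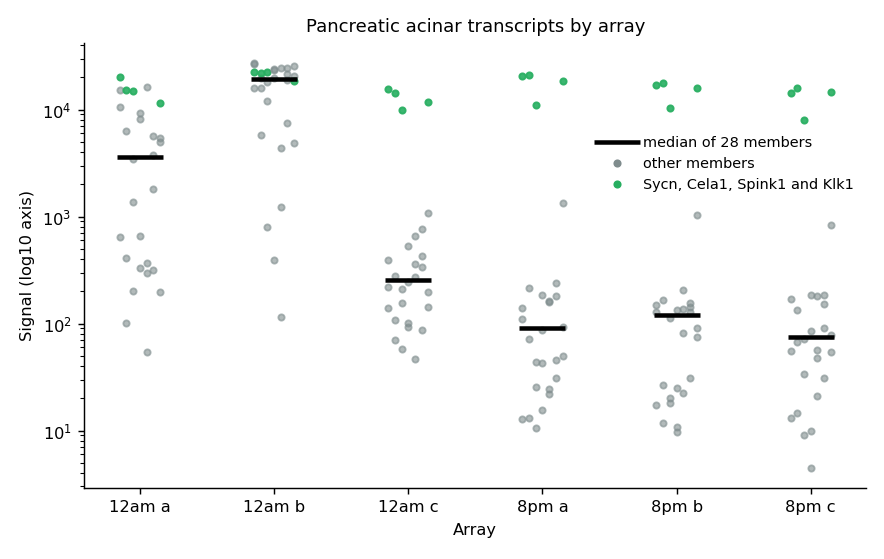
Signal (log10 axis) of 28 pancreatic acinar transcripts in each array of 12am and 8pm, with grey dots for single transcripts, green dots for Sycn, Cela1, Spink1 and Klk1, and black bars for the median of the 28. The median is 3612, 19262 and 256.5 in 12am a, b and c and 75.0 to 119.5 in the 8pm arrays, while the green dots lie between 7975 and 22644 in all 6 arrays.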

How the data were processed

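Total RNA of mouse distal colon was hybridised as biotin-labelled cRNA, 1 sample per 1-colour Affymetrix array. The deposited values are intensities on a linear scale, made by the authors with GCOS, per the submitters' processing notes, whose version and settings are not given in the sources used here. The deposited scaling was kept. Of 45101 probe sets 64 controls were left out, and 34945 had 1 gene symbol, 932 several and 9160 none. Probe sets whose mean log2(signal + 16) over all 18 arrays reached the 40th percentile were kept (27022), and the one with the highest mean stood for each of 12870 genes. Limma 3.58.1 in R 4.3.3 fitted group means to the 12 arrays of 8am, 12pm, 8pm and 12am with eBayes and a trend (8 residual degrees of freedom), and Benjamini-Hochberg adjustment ran over all genes, with a threshold of 0.05. All adjusted p values are limma's. The number of arrays limits the precision.

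Genes named were drawn from the tested clock genes, the 12 largest changes per direction, up to 4 members per list with the lowest p, and the pancreatic lists. Other list members named to complete a count, and the genes called oppositely in the dark and the light, were chosen after their values were seen. The members and lists were chosen with earlier results of these data known. Deviations of same-lettered arrays from the means of their times correlated at r from -0.29 to 0.18, and the main fit did not pair arrays by letter. The labels do not say what the letters stand for, and correlations over so few arrays cannot show that they share nothing. Alternatives varied the constant, scaling, filter, probe set, arrays, trend, weights and block. The constant of 256 and the fit without 12am a and b were added after seeing the data.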

Additional observations from a re-analysis of the deposited data

Results flagged for a closer look

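In 4 genes the arrays of both pairs did not overlap and the steps had opposite directions, each step passing the limma test. The step in the dark less that in the light was -4.1161 for Dbp, -2.4779 for Nr1d2 and -1.0244 for Sft2d1, all lower at 12am and higher at 12pm. For Gpat4 it was 1.621, higher at 12am and lower at 12pm. The test of the difference itself did not pass over all genes, with an adjusted p of 0.0867 for Nr1d2 and 0.119 for the other three.

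Among arrays outside the comparisons, the elastase Cela2a had signals of 3185 and 13504 in 4pm a and b and of 557 in 4am a, above every 8am and 8pm array.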

How the results depend on the processing

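For 12am against 8pm the main count of 2802 became 4330 with arrays centred on their medians, 4418 with every probe set tested on its own, 623 with all 18 arrays in the fit and 1498 without 12am a and b. Leaving out 1 array gave 1399 (without 8pm a) to 2818. For 12pm against 8am the 1380 became 2123 with every probe set, 182 with all 18 arrays and 3507 with array weights, and 527 (without 8am c) to 1886 (without 12am a) with 1 array left out. Counts of 628 without 8am a, 680 without 12pm a and 575 without 12pm c also differed by over 1.5 times. The difference between the steps, with 0 calls, gave 1 with median centring (Nr1d2), 18 with array weights, 4 without 12am a and b, and 0 to 5 with 1 array left out, the 5 without 8am c being Dbp, Gpat4, Nr1d1, Nr1d2 and Slc36a1. The replicate block gave 2565, 1149 and 0, and changed no such count by over 1.5 times. Directions reversed for Agps, to 0.3402 with a constant of 1 and 0.2065 after quantile normalization, and, with probe sets averaged, for Klf9 (0.0391), Hspa4 (0.0798) and Slc38a2 (0.0723). The probe set that stood for a gene was chosen anew with each constant and scaling. Whether Agps changed probe set there, and the cause of these reversals, was not tested. Of 144 named genes called, 31 kept the call in every alternative run, 103 after quantile normalization and 44 with all 18 arrays. The fit of all 18 takes in the 4pm and 4am arrays with high Gapdh ratios of the 3′ to the 5′ end. Signals near the constant of 16 limit the size of the largest steps.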
